A study of Mus musculus with 4 samples.

Results

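Liver RNA of middle-aged mice, 13 months old, was set against that of young adults, 4 months old. Both groups were male mice of the inbred strain C57BL/6J on a low-fat diet eaten ad libitum, and the labels name no transgene or drug. For each age the RNA of 6 livers was pooled and hybridised to 1 oligonucleotide array, so the comparison uses 2 of the 4 arrays of an age series that also holds pools of 8 and 21 months. The 8-month pool was passed over because some genes typical of ducts stand apart in it (Dmbt1 at 7.30, against 1.86 to 2.35 in the other pools). Others, such as Epcam, do not (4.13, against 4.02 to 4.30). The 8-month levels are given only beside those of the members, as are the 21-month levels. Of 18193 genes that could be named through a probe set with a single symbol, 11587 had a mean level over the 4 arrays at or above 3.74, the median of the non-control probe sets. These kept genes are the members described here, each through its probe set with the highest mean.

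Levels are log2 values, so that a difference of 1 means 2-fold, and every difference is the 13-month level minus the 4-month level. There was 1 pool per age, so no test could be run, the spread between mice is unknown, and no value has an SD or a p-value. A size is all that can be given. A pool of whole liver mixes hepatocytes with Kupffer cells, endothelium and blood cells, so fewer cells of a type and less RNA per cell cannot be told apart.

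In the liver, hepatocytes carry out metabolism under the control of feeding, hormones and an internal clock. Daily rhythms arise from a loop in which Clock and Arntl activate E-box genes, among them the Per and Cry repressors and the output factors Dbp, Tef and Hlf. The pulsed secretion of growth hormone in males, read through Stat5b, keeps male-predominant liver genes on and female-predominant genes off. Interferons induce a separate set of defence genes, including the guanylate-binding proteins (Gbp) and immunity-related GTPases (Irg), in hepatocytes and in resident immune cells alike.

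The 4-month and 13-month arrays had the same median over all 45101 probe sets, 3.75. RMA, the method that made the deposited values, aligns the distributions, so equal medians do not check whether the pools are comparable. The differences of the kept genes had a median of 0.01 and an SD across genes of 0.19, and 81.1% of them lay within 0.2 of 0. In all, 5926 kept genes were higher at 13 months, 5267 lower and 394 equal, which is the balance against which the counts of higher and lower list members can be read. Among 4796 genes with at least a pair of probe sets above the filter, the differences of the 2 brightest disagreed by a median of 0.11, which is a measure of how far 2 readings of a gene differ on the same arrays. These gaps had an SD of 0.19, about that of the differences across genes, and most lay between -0.40 and 0.39. A single difference inside that range is thus no larger than the disagreement 2 readings of a gene can show. The Gapdh 3′ minus 5′ difference, a sign of RNA integrity, was 0.18 at 4 months and 0.16 at 13, and that of β-actin 1.13 and 1.01. The tissue label was checked with hepatocyte markers. Alb, which encodes albumin, was at 13.49 in both pools, and the 13 hepatocyte markers had a median difference of 0.00, from -0.15 for Hnf4a to 0.25 for Cebpa. The bile duct keratin Krt19 was below the filter in both pools, at 3.48 and 3.32. Of the kept duct markers, Epcam, Tff2 and Cd24a were at -0.02, -0.02 and -0.01, Sox9 was at -0.31 and Cldn4 was higher by 0.40.

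Of the kept genes 21 were at least 2-fold higher at 13 months, which is 0.181%, and 6 were at least 2-fold lower, which is 0.0518%. At a threshold of 1.5-fold (0.585 on the log2 scale) the counts were 97 higher, or 0.837%, and 53 lower, or 0.457%. With the filter raised to the 75th percentile of the probe sets, the counts at 2-fold were 12 higher and 6 lower. The shares above are the background against which the gene lists below can be read. Just inside the 2-fold threshold lay Zbp1 and S1pr5, both higher by 1.01, and Cdh1 at -1.03. Just outside it lay Gbp2b and Socs2, both higher by 0.95, and Gadd45g at -0.97. At least 1 further probe set above the filter read 9 of the 21 higher genes. For 8 of these at least 1 of the others was higher by 1.5-fold or more, though only 1 of 5 for Ighm and 1 of 2 for Gnai1. Further probe sets above the filter read 3 of the 6 lower genes, and for 2 at least 1 was lower by 1.5-fold or more. No other probe set of these genes differed 1.5-fold in the opposite direction.

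**Figure D1:**
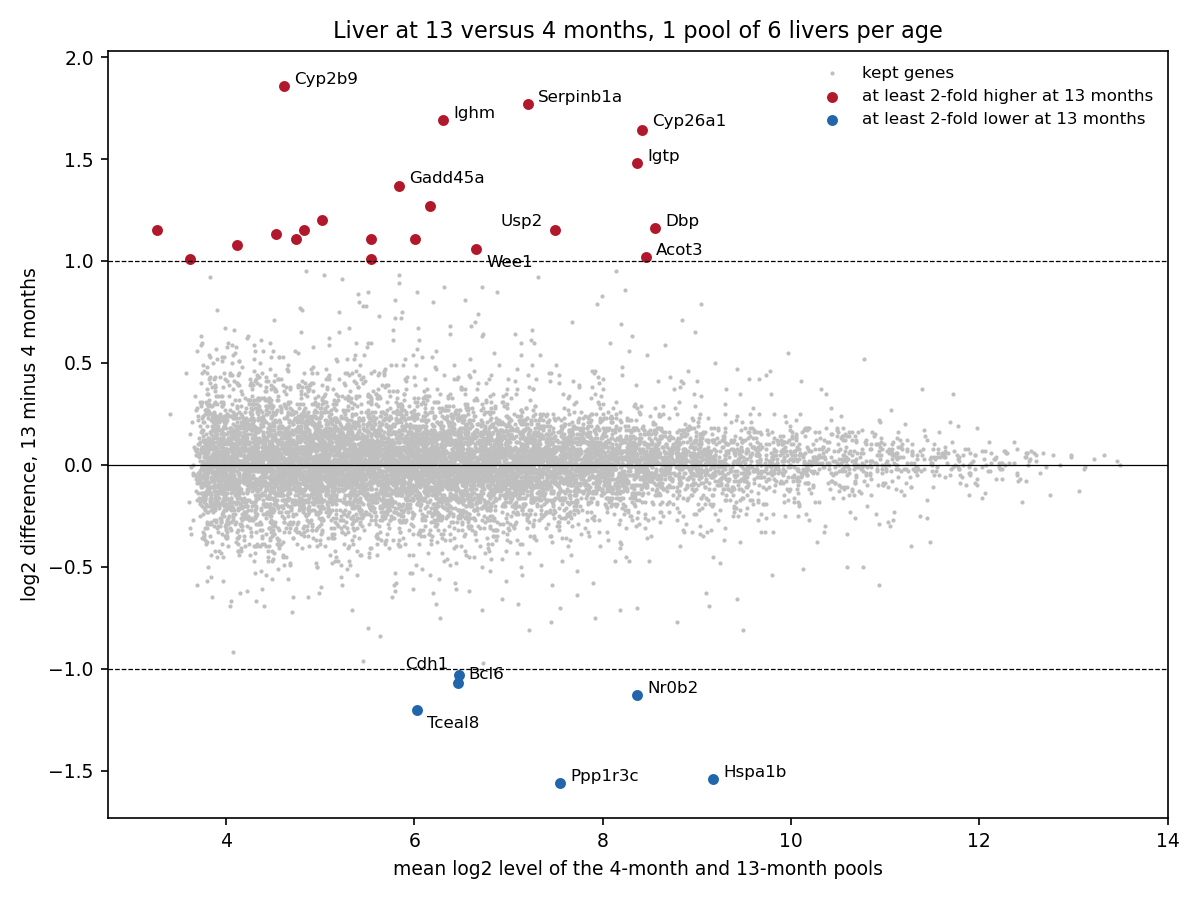
Each point is 1 of the 11587 kept genes, with the mean log2 level of the 4-month and 13-month pools on the x axis and the log2 difference, 13 minus 4 months, on the y axis; dashed lines mark 2-fold. Most points lie close to 0, 21 genes (red) lie at or above 1, up to Cyp2b9 at 1.86, and 6 (blue) lie at or below -1, down to Ppp1r3c at -1.56.

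The largest difference was that of Cyp2b9, a cytochrome P450 that mouse liver expresses mostly in females. Its level was 3.69 in the 4-month pool, 5.55 at 13 months and 7.48 at 21, with 3.56 at 8 months, and the 13-month pool was 3.63-fold above the 4-month pool. The 4-month level lies below the filter, which is a median of the probe sets and not a detection limit. Whether that level stands above background is not known, so the size of this fold is uncertain. Serpinb1a, an inhibitor of neutrophil serine proteases, was at 6.32 in the 4-month pool, 6.62 at 8 months, 8.09 at 13 and 7.94 at 21. It was 3.41-fold higher at 13 months, and its second probe set gave 1.75 on the log2 scale against 1.77. For this gene the pools split into the low ages of 4 and 8 months and the high ages of 13 and 21.

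Cyp26a1, the enzyme that clears retinoic acid and is itself induced by it, was at 7.60, 8.21, 9.24 and 9.12 in order of age. The 13-month pool was 3.12-fold above the 4-month pool, and no other probe set above the filter measured this gene. Ighm, which encodes the heavy chain of IgM, was at 5.46 at 4 months and 6.41 at 8, then 7.15 at 13 and 8.30 at 21. Its probe sets did not behave alike. Of 5 others above the filter 1 was higher by 1.11 and the rest lay between -0.11 and 0.30, so the mean over all its probe sets differed by 0.30 only. Of the other 5 kept markers of B cells and plasma cells 4 were higher and 1 lower, and their summed log2 level without Ighm was 20.21 at 4 months and 20.88 at 13. Jchain was higher by 0.13, Mzb1 by 0.04, and Cd22 was at -0.10. The B cell surface genes Ms4a1 and Cd79b were higher by 0.31 and 0.29 from 4-month levels below the filter. The remaining listed markers Cd79a, Blk, Fcmr and Pou2af1 were below the filter in both pools, with differences of -0.02, -0.15, 0.02 and -0.19. The part of B cells in the Ighm difference was not tested.

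Gadd45a, a growth-arrest gene induced by stress, was at 5.15 in the 4-month pool against 6.74, 6.52 and 6.67 in the older pools. The young pool stands alone below the other 3. Its family member Gadd45g differed the other way, from 7.22 at 4 months through 6.76 and 6.25 to 5.75 at 21 months, a difference of -0.97 at 13 months. Gadd45b was higher by 0.22. The 13 kept genes of the Gadd45, p53 and senescence list had 5 higher and 8 lower members and a median of -0.04, and Cdkn1a, the cyclin-dependent kinase inhibitor p21, differed by 0.02. Wfdc2, a secreted protease-inhibitor family member, followed a course like that of Gadd45a, at 4.99 in the young pool against 6.06, 6.10 and 6.54 later. Gnai1, an inhibitory G protein subunit, was also lowest in the young pool, at 5.45, with 6.90, 6.56 and 6.03 at the later ages.

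Several of the remaining genes past 2-fold stood highest at 13 months. Dclre1a, a DNA crosslink repair nuclease, was at 5.53, 5.99, 6.80 and 5.94 with age, but its second probe set above the filter gave -0.04 and the mean over all its probe sets 0.36. Wee1, a kinase that holds back entry into mitosis and is known to be driven by the clock, was at 6.13, 7.01, 7.19 and 6.50. Acot3, a peroxisomal acyl-CoA thioesterase, was at 7.95, 8.46, 8.97 and 7.31, so its 13-month value is the highest and its 21-month value the lowest. Prss8, a membrane-anchored serine protease, was higher by 1.15, and the zinc finger gene Zfp991 by 1.20, with 1.52 on its second probe set. Slc8a1, a sodium-calcium exchanger, was higher by 1.11, D630033O11Rik by 1.13, and Camk2d, a calcium-dependent kinase, by 1.08 from a 4-month level of 3.58, below the filter. S1pr5, a sphingosine-1-phosphate receptor, went from 3.11 to 4.12, also from below the filter. Its mean over the 4 arrays, 3.745, was just above the filter of 3.74. Averaged over all their probe sets, Slc8a1 differed by 0.25 and Camk2d by 0.12, so neither passed 2-fold, though their other probe sets lie below the filter. In all, 13 of the 21 higher genes had their highest level of the 4 ages at 13 months, a count to which the choice by 13-month level contributes.

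The 6 genes at least 2-fold lower were a glycogen-targeting subunit, a heat shock protein, a nuclear receptor, a transcriptional repressor, a cell adhesion molecule and an elongation factor-like protein. Ppp1r3c, which brings protein phosphatase 1 to glycogen and so favours glycogen synthesis, was at 8.33 and 7.82 at 4 and 8 months, 6.77 at 13 and 8.12 at 21. Hspa1b, the inducible Hsp70, was at 9.94 and 9.95 in the young pools and 8.40 and 8.66 in the old ones, and its 3 probe sets gave -1.54, -1.46 and -1.44. Tceal8, of the transcription elongation factor A-like family, was at 6.63, 5.97, 5.43 and 6.91. All 6 were lowest of the 4 ages at 13 months, which their choice favours, but they differed in what followed: Ppp1r3c, Nr0b2, Bcl6 and Tceal8 were back near or above their 4-month level at 21 months, while Hspa1b and Cdh1 were not. Cdh1, which encodes E-cadherin and is highest in periportal hepatocytes, was at 6.99, 6.55, 5.96 and 6.07.

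**Figure D2:**
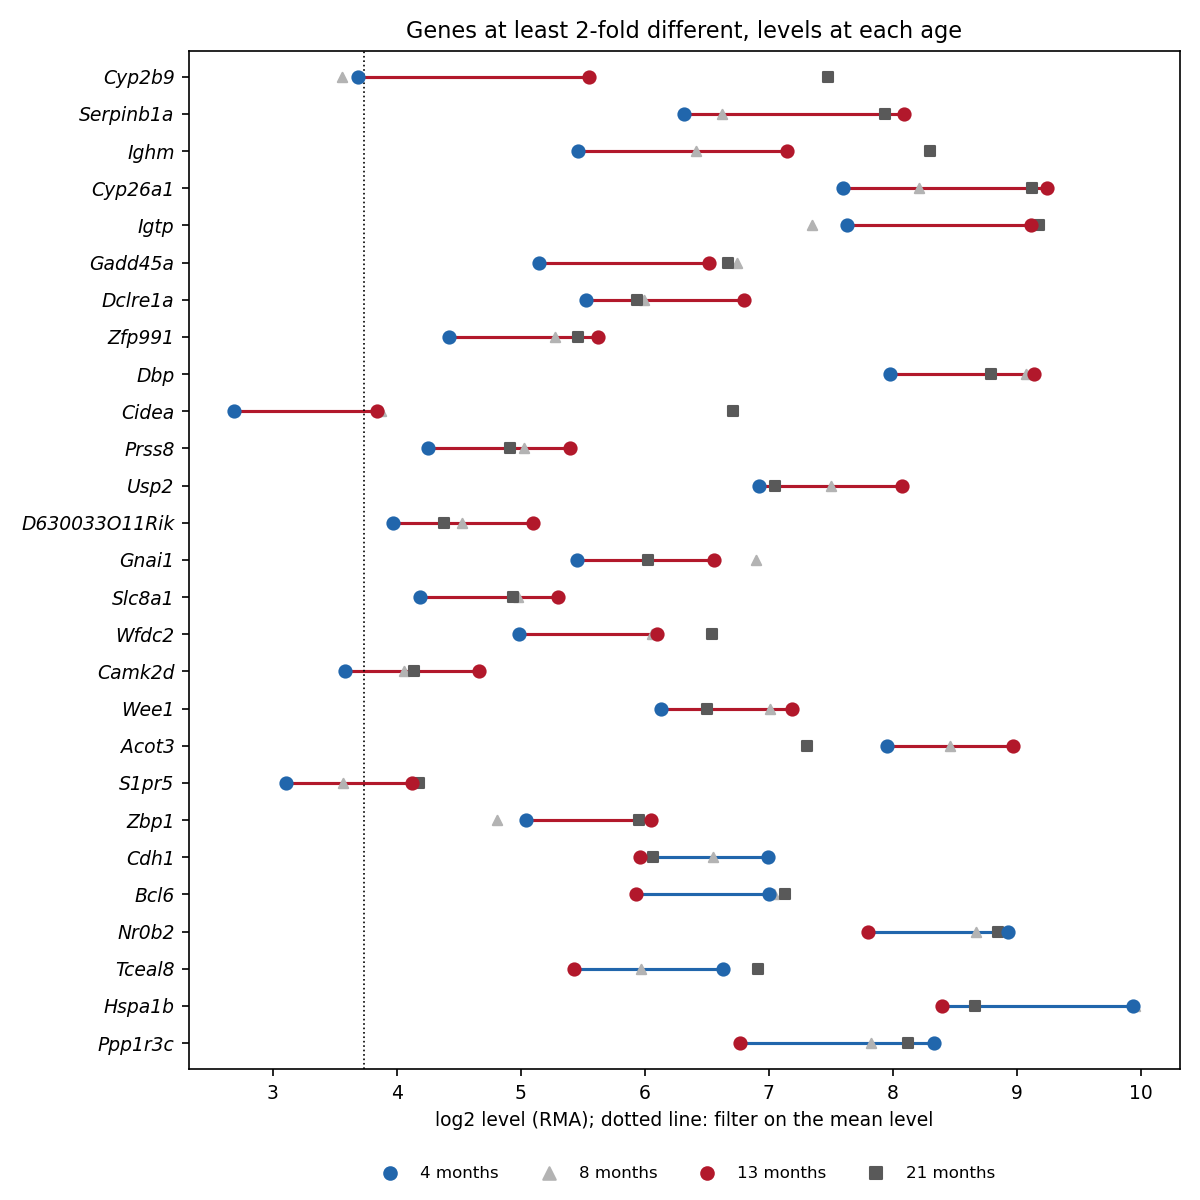
The log2 level of each gene at least 2-fold different is drawn for the pools of 4, 8, 13 and 21 months (blue circle, light triangle, red circle, dark square), with a line from 4 to 13 months that is red where the 13-month level is higher; the dotted line marks the filter at 3.74. The 21-month point of Cyp2b9 (7.48) and Cidea (6.71) lies far beyond the 13-month point, whereas those of Ppp1r3c, Nr0b2, Bcl6 and Tceal8 lie near the 4-month point.

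The interferon-inducible GTPases had the highest median difference of the 48 gene and marker lists. These proteins coat the vacuoles of intracellular pathogens and help to break them. Of 19 listed, 11 had a probe set with a single symbol, all 11 passed the filter, and the other 8 are unnamed here. Each of the 11 was higher in the 13-month pool, 5 by 1.5-fold or more, with a median difference of 0.41 against 0.01 over all kept genes. Without probe sets that can match several transcripts, such as that of Gbp2, the median was 0.64. The promoters of these genes are shown because the letters of an interferon-stimulated response element recur in them. The stretches below are 100 bases within the 250 before each annotated start, from the RefSeq promoter table of GRCm38.p6, read 5′ to 3′ along the gene. Capitals mark the core GAAANNGAAA, or its reverse complement TTTCNNTTTC where it lies on the other strand, including overlapping matches.
Igtp (chr11:58199456-58199555, plus strand): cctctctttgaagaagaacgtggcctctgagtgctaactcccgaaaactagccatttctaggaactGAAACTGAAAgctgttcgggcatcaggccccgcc
Irgm2 (chr11:58214868-58214967, plus strand): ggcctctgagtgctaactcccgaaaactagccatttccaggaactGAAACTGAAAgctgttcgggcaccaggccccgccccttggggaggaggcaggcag
Irgm1 (chr11:48871421-48871520, minus strand): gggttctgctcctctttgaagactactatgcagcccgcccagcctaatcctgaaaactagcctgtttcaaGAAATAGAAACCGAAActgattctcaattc
Gbp2b (chr3:142594665-142594764, plus strand): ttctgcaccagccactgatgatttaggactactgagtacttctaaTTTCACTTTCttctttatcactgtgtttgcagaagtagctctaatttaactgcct
Gbp3 (chr3:142559944-142560043, plus strand): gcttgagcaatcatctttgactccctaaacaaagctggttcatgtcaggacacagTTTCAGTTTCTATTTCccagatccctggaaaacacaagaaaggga
Gbp7 (chr3:142530236-142530335, plus strand): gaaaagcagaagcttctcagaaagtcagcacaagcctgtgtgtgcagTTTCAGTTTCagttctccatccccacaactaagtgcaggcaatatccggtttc
Gbp2 (chr3:142620559-142620658, plus strand): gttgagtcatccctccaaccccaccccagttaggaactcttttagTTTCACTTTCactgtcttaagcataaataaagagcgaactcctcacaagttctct

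This core was found on either strand in 7 of the 8 GTPase genes with a promoter in the table, the exception being Ifi47. Over all 27025 genes with a promoter 3.46% held it, and over the kept genes 3.07%. Of the type I interferon response genes 7 of 20 held it, and of the MHC class I and immunoproteasome genes 1 of 11, B2m. In Igtp and Irgm2, neighbours on chromosome 11, the printed stretches overlap by 79 bases when aligned on the core, and 77 of the 79 are identical. A letter match is a description and not a proven binding site. The gamma-activated site letters TTCNNNGAA were found in 3 of the 8, Igtp, Irgm2 and Gbp7, against 8.13% of all genes.

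Igtp, also known as Irgm3, had the largest difference of the list. Its level was 7.63 at 4 months, 7.35 at 8, 9.11 at 13 and 9.18 at 21, and the 13-month pool was 2.79-fold above the 4-month pool. The other regulatory Irg genes had smaller differences. Irgm2 was at 7.55, 7.16, 8.34 and 8.52, and Irgm1 at 7.24, 7.10, 7.65 and 8.16. Among the effector Irg genes Ifi47 was higher by 0.35 and Iigp1 by 0.21, the smallest difference of the list.

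Of the guanylate-binding proteins, Gbp2b was at 4.38, 3.22, 5.33 and 5.78, Gbp3 at 5.26, 4.80, 5.99 and 6.38, and Gbp7 at 6.41, 5.81, 7.05 and 7.27. These were higher by 0.95, 0.73 and 0.64 at 13 months. Gbp6 was higher by 0.40, Gbp2 by 0.35 and Gbp8 by 0.25 from 3.69, a level below the filter. For each of the 11 genes the 8-month pool lay below the 4-month pool and the 21-month pool above the 13-month pool, so the order of the ages was 8, 4, 13 and 21 months throughout. The same order was seen outside this list, among others in the macrophage markers C1qa and Cd5l. Since 1 pool gives all 11 values at an age, these are not 11 separate observations of age.

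**Figure D3:**
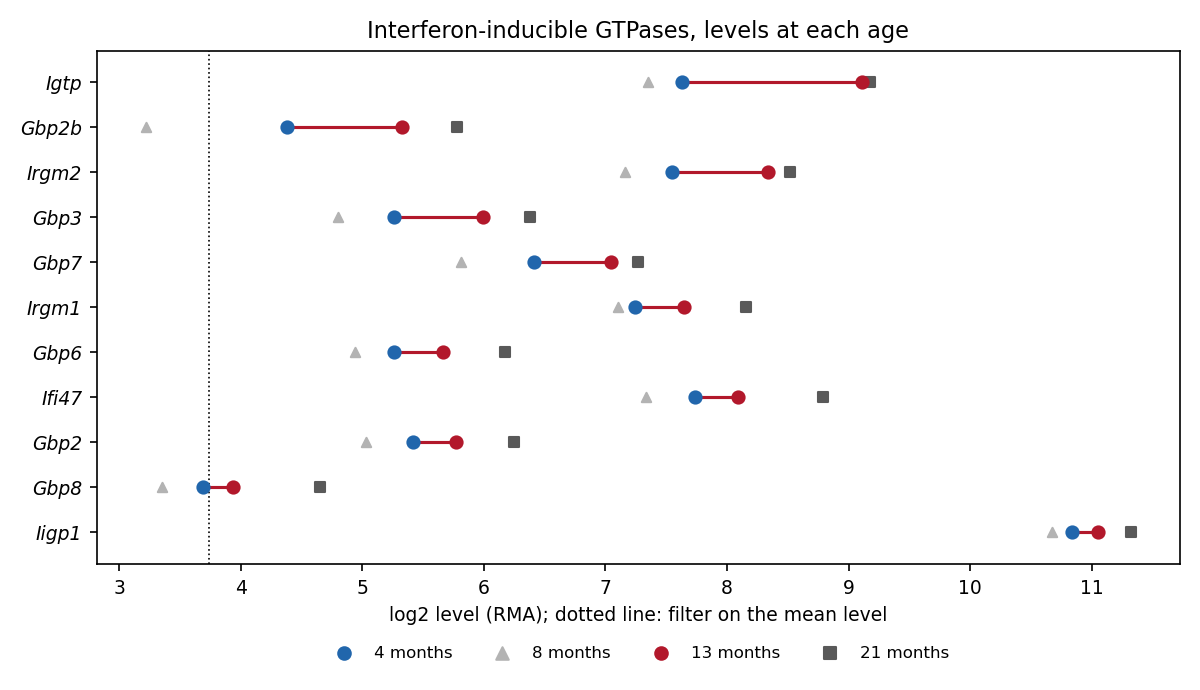
Log2 levels of the 11 interferon-inducible GTPase genes are drawn for the 4 pools, with a line from 4 to 13 months and a dotted line at the filter of 3.74. In every row the 8-month triangle is leftmost and the 21-month square rightmost; the gap from 4 to 13 months runs from 0.21 (Iigp1) to 1.48 (Igtp).

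The genes that carry the interferon-gamma signal differed by less. Of 11 kept members 7 were higher and 4 lower, none reached 1.5-fold, and the median was 0.08. The receptor chains Ifngr1 and Ifngr2 were higher by 0.08 and 0.06, the kinases Jak1 and Jak2 were both at -0.03, and the transcription factor Irf1 was higher by 0.18. Nlrc5, which activates MHC class I genes, was higher by 0.33. The chemokine Cxcl9, a classic target, was at 7.03, 6.45, 6.71 and 7.31, a difference of -0.32, and Cxcl10 was at -0.15.

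Type I interferon response genes were mixed. Of 29 kept members 21 were higher and 7 lower, with a median of 0.12. Past 1.5-fold were 4, all higher. Zbp1, a sensor of Z-form nucleic acid, was at 5.04 and 4.81 at 4 and 8 months and 6.05 and 5.95 at 13 and 21. Irf7, the factor that amplifies interferon production, was at 6.26, 6.07, 6.94 and 7.29. Ifi27 and Rtp4 were higher by 0.71 and 0.66. At the other end lay Trim30a at -0.25 and Oas2, a sensor of double-stranded RNA, at -0.24.

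Antigen presentation genes were higher by smaller amounts. All 6 kept MHC class II genes were higher, with a median of 0.275 and none past 1.5-fold. H2-Eb1 was at 7.66, 7.24, 8.12 and 8.82 and H2-Ab1 at 7.48, 7.03, 7.89 and 8.69, the order of ages seen in the GTPases. Of 12 MHC class I and immunoproteasome genes 11 were higher, with a median of 0.215. The inducible proteasome subunits Psmb8, Psmb10 and Psmb9 were higher by 0.47, 0.45 and 0.35 and the activator Psme1 by 0.37, whereas B2m, the class I light chain, was higher by 0.06. For comparison, the 28 subunits of the constitutive proteasome ranged from -0.04 to 0.17, with a median of 0.085.

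Macrophage and Kupffer cell markers were measured beside these lists. Of 25 kept markers 16 were higher and 9 lower, with a median of 0.12, and their summed log2 level was 171.59 at 4 months and 174.63 at 13. Past 1.5-fold were Marco, a scavenger receptor, higher by 0.87, and Mpeg1, a pore-forming protein, by 0.60. Marco was at 5.88, 4.42, 6.75 and 6.46. The Kupffer cell genes Cd5l and Timd4 were higher by 0.15 and 0.14, Cd163 by 0.16, and the complement chains C1qa, C1qb and C1qc by 0.04, 0.17 and 0.15. Clec4f was at -0.06, Csf1r at -0.08, Vsig4 at -0.14 and Adgre1, an adhesion receptor used as a macrophage marker, at -0.17. C1qa was at 7.99, 7.53, 8.03 and 8.62, the order of ages seen in the GTPases, which C1qb, C1qc, Cd5l, Timd4 and Mpeg1 also had. Marco, Cd163, Clec4f, Csf1r, Vsig4 and Adgre1 did not have it. The part of macrophages in the interferon and antigen presentation differences was not tested.

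Markers of other leukocytes gave few members above the filter. Of 6 neutrophil genes 4 were higher and 2 lower, and the calprotectin chains S100a8 and S100a9 were higher by 0.72 and 0.45. The granule genes Ngp and Elane were at -0.08 and -0.13. Prtn3 was below the filter in both pools, at 3.67 and 3.72, and was kept only through its 21-month level of 6.40. Of 8 T cell and NK cell genes 5 were higher and 3 lower. Gzmb, the cytotoxic protease granzyme B, went from 3.44, below the filter, to 4.03, and the T cell receptor genes Cd3e and Cd3d were at -0.02 and -0.01.

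The circadian clock list had members far to either side. Of 17 kept genes 13 were higher and 4 lower, with 6 higher and 1 lower by 1.5-fold or more and a median of 0.24. The 6 became 3 with the filter at the 75th percentile and 4 with the mean over all probe sets, where none was lower by 1.5-fold. No source used here gives the hour at which tissue was collected, so a difference in hour and a difference in age cannot be told apart.

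Dbp, a PAR bZIP factor whose transcript swings widely over the day, was at 7.98 in the 4-month pool and at 9.07, 9.14 and 8.79 in the later ones. Its second probe set gave 1.37 against 1.16. Usp2, a ubiquitin-specific protease under clock control, was at 6.92, 7.50, 8.07 and 7.05, so the oldest pool was close to the youngest. Among the repressors, Per3 was at 5.08, 5.79, 5.93 and 5.68, and Per2 at 5.24, 5.36, 5.84 and 5.24. As means over all their probe sets they were higher by 0.30 and 0.29. Ciart, a repressor of the Clock-Arntl complex, was at 4.98, 5.93, 5.82 and 5.54. For Dbp, Per3 and Ciart the 4-month pool was the lowest of all, with the other 3 close together. Noct, a rhythmic deadenylase-like protein also called nocturnin, was at 7.58 and 7.41 in the younger pools and 8.41 and 8.67 in the older.

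Tef, a relative of Dbp, was higher by 0.44, Cry2 by 0.38 and Per1 by 0.24. On the other side stood Arntl, the partner of Clock, at 6.09, 5.66, 5.44 and 5.85, a difference of -0.65. Its second probe set, near the filter, gave -0.02, and the mean over all its probe sets -0.34. Clock was at 6.99, 6.74, 6.58 and 6.72, and Nfil3, which opposes Dbp at shared sites, at 6.54, 6.20, 5.98 and 6.38. These were lower by 0.41 and 0.56 on the log2 scale. Little difference was seen in Nr1d1, the repressor of Arntl also called Rev-erb alpha, with 0.07, or in its opponent Rora, with 0.02. Nampt, the NAD synthesis enzyme whose gene the clock drives, was higher by 0.46, and Alas1, the first enzyme of heme synthesis and another rhythmic gene, by 0.52.

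**Figure D4:**
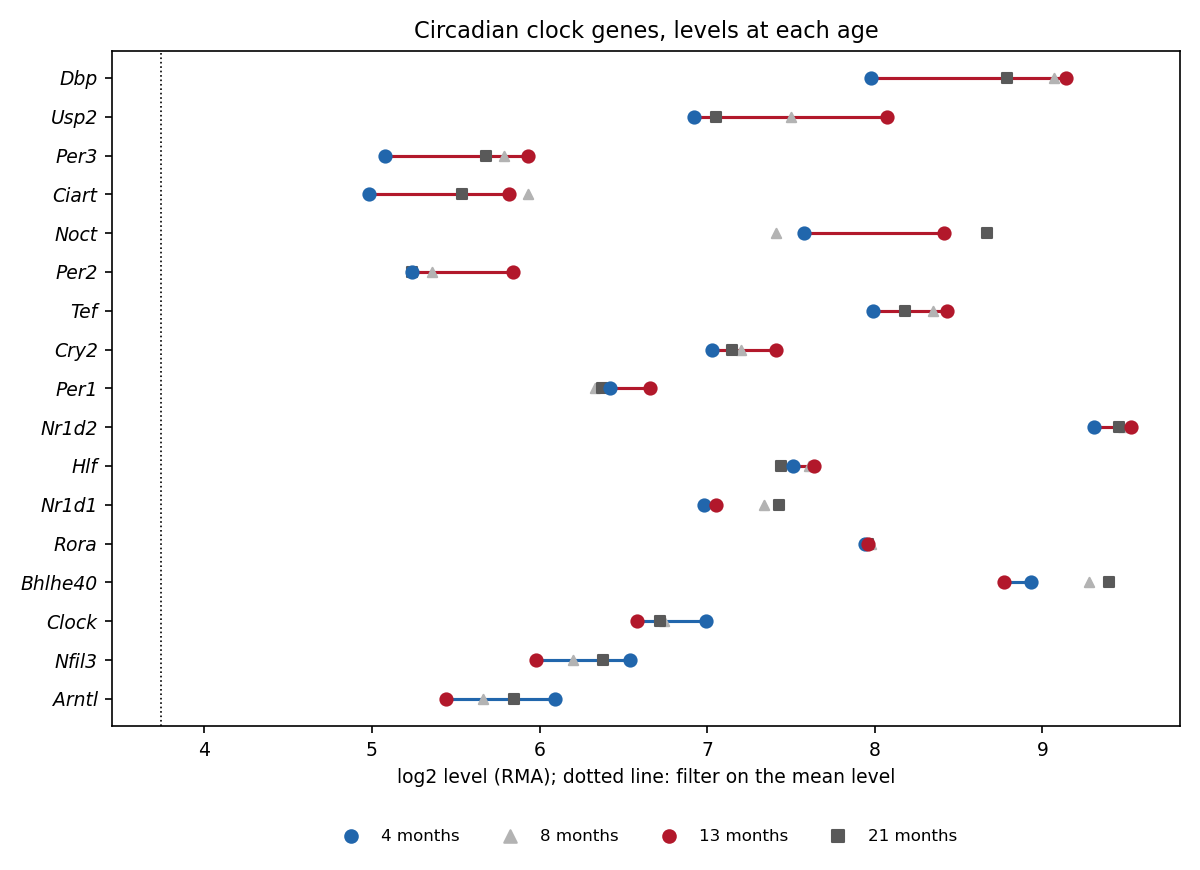
Log2 levels of the 17 kept clock genes are drawn for the 4 pools, sorted by the difference between 13 and 4 months, with lines from 4 to 13 months in red where higher and blue where lower. Dbp (1.16) and Usp2 (1.15) lie at the top and Arntl (-0.65), Nfil3 (-0.56) and Clock (-0.41) at the bottom.

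Promoter stretches of 4 clock genes are shown for the letters of the elements through which the loop is known to run. Capitals mark the E-box CACGTG in Ciart and Tef, and in Per3 and Noct a D-box-like TTATGNAA or its reverse complement TTNCATAA. The sequences are from the same RefSeq table of GRCm38.p6.
Ciart (chr3:95882256-95882355, minus strand): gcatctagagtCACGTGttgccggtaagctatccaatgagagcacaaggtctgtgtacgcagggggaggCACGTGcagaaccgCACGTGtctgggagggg
Tef (chr15:81802499-81802598, plus strand): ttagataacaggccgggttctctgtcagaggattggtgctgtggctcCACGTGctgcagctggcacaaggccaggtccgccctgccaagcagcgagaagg
Per3 (chr4:151044794-151044893, minus strand): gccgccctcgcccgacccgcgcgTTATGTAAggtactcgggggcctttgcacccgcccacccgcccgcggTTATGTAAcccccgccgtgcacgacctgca
Noct (chr3:51224307-51224406, plus strand): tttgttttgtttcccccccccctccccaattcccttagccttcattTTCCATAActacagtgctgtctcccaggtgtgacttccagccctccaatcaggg

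Ciart holds 3 E-boxes in this stretch and Per3 holds 2 D-box-like matches. Within 250 bases of the start the E-box was found in 3 of 15 clock genes with a promoter, Per1, Tef and Ciart, against 6.86% of all genes and 10.0% of kept genes. The D-box-like letters were found in 3 of the 15, Per1, Per3 and Noct, against 3.63% of all genes. Among the 6 genes at least 2-fold lower, 5 had a promoter and 3 held an E-box, Bcl6, Nr0b2 and Ppp1r3c, while 1 of 14 among those at least 2-fold higher did, Gnai1.

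Genes with a sex difference showed opposite balances. Of 19 kept male-predominant genes 15 were lower at 13 months and 4 higher, 3 were at least 1.5-fold lower, and the median was -0.18. Bcl6, a repressor that in males holds down female-predominant genes, was at 7.0, 7.04, 5.93 and 7.13, so the 13-month pool alone was low. Its second probe set gave -0.54. Hsd3b5, a steroid dehydrogenase found in male liver, was at 9.90 and 10.06 in the younger pools and 9.09 and 9.11 in the older. Elovl3, a fatty acid elongase, was at 11.23, 11.21, 10.64 and 10.54 and the organic anion transporter Slco1a1 at 10.38, 10.36, 9.87 and 9.59. The exceptions included Susd4, higher by 0.21, and Cspg5, by 0.29, and Cyp2d9 and Ugt2b38 were both at -0.02.

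The female-predominant list had 13 kept genes of 26 listed, 9 higher, 3 lower and 1 equal, with a median of 0.09. At least 1.5-fold higher were Cyp2b9 and Acot3, described above, and Trim24, a transcriptional co-regulator, at 6.97, 6.79, 7.57 and 7.29. A second probe set of Trim24 gave 1.31 from a level below the filter. Atp6v0d2, a proton pump subunit, and Acot4, a neighbour of Acot3 in the same thioesterase family, were higher by 0.56 and 0.52. Acot3 was read by a probe set that can match several transcripts, so its level and that of its relatives cannot be fully parted. Cux2, a female-specific regulator, was at -0.10, and Cyp2b10 and Cyp39a1 were both at -0.36. The filter kept a gene such as Cyp2b9 only through its level at the older ages, so the counts do not stand for all female-predominant genes.

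The growth hormone and IGF axis showed opposite differences within the list. Of 16 kept genes 7 were higher and 9 lower, with a median of -0.03 and a mean of 0.05. Socs2 and Cish, feedback inhibitors that growth hormone induces through Stat5b, were at 7.67, 8.24, 8.62 and 7.82 and at 7.26, 7.71, 7.75 and 7.09. They were higher by 0.95 and 0.49 at 13 months and close to the 4-month level at 21. Of 3 other probe sets of Socs2 2 were higher by 1.25 and 0.59, and a dim one was at -0.07, which gives a mean of 0.48. Onecut1, a hepatocyte factor that growth hormone also regulates, was at 5.39, 6.15, 6.28 and 5.23, with 0.90 on its second probe set. The receptor Ghr was at -0.26 and Stat5b at -0.11. Bcl6, which growth hormone is known to repress, is in this list as well.

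Metabolic lists differed mainly in single members. In the bile acid list 9 of 22 were higher and 13 lower, with a median of -0.07. Nr0b2, the small heterodimer partner that bile acids induce through Nr1h4 and that represses Cyp7a1, was at 8.93, 8.67, 7.80 and 8.85. Cyp7a1, the enzyme of the first step of the classic pathway, was at 9.52, 8.90, 9.96 and 9.11. The 13-month pool thus had the lowest Nr0b2 and the highest Cyp7a1 of the 4. Fgfr4, the receptor of the gut hormone that restrains Cyp7a1, was higher by 0.34, its partner Klb by 0.11, and Nr1h4, the bile acid receptor FXR, by 0.02. The export pump Abcb11 was at -0.26.

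In the list of gluconeogenesis, glycogen and insulin signalling 11 genes were higher and 11 lower, with a median of -0.01. Beside Ppp1r3c, the liver glycogen-targeting subunit Ppp1r3b was at 9.17, 8.66, 8.40 and 8.94, a difference of -0.77. Another member of the family, Ppp1r3g, was higher by 0.45. Glycogen synthase Gys2 was higher by 0.22 and glucose 6-phosphatase, G6pc, was at -0.28. The receptor Insr and its substrate Irs1 were at -0.26 and -0.27, while Irs2 was higher by 0.27.

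Lipid droplet and lipid uptake genes were mostly higher, 19 of 23, with a median of 0.13. Cidea, which fuses lipid droplets, was at 2.69, 3.87, 3.84 and 6.71, so that its 13-month level was near that of 8 months and just above the filter. It was kept only through its 21-month level. Apoa4, an apolipoprotein that responds to hepatic fat, was at 8.65, 9.13, 9.44 and 8.88, with 0.98 on its second probe set against 0.79. Fitm1, a droplet-forming membrane protein, was at 8.00, 8.66, 8.63 and 8.70. For Fitm1 the young pool stood alone below the rest. Cd36 and Pparg were higher by 0.33 and 0.25, and Plin2, the main droplet coat protein of hepatocytes, was at -0.06. Of 4 kept adipose markers Lipe, Fabp4 and Car3 were higher by 0.35, 0.25 and 0.01 and Retn was at -0.22, with a summed log2 level of 28.65 at 4 months and 29.04 at 13. The Car3 value comes from its brightest probe set, and of 3 others above the filter 2 were higher by 1.5-fold or more. The fat cell hormones Adipoq and Lep were below the filter in both pools, with differences of 0.04 and -0.10. Cidec, listed both as a lipid droplet gene and as an adipose marker, was below it as well, at 2.93 and 3.55, a difference of 0.62. The part of adipose tissue was not tested.

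Fatty acid and sterol synthesis lists had no member past 1.5-fold on the probe set used. Of 22 fatty acid synthesis genes 12 were higher and 9 lower. Srebf1, the lipogenic factor, was higher by 0.56, Mid1ip1 by 0.48 and Thrsp by 0.47, and Elovl2 was at -0.33. Of 21 cholesterol genes 12 were higher and 7 lower. Fdft1, squalene synthase, was higher by 0.54, and Insig2, which retains the sterol sensor in the endoplasmic reticulum, was at -0.50. Of 2 other Insig2 probe sets above the filter 1 was lower by 1.5-fold or more. Of 28 genes of fatty acid oxidation 20 were higher and 8 lower, with a median of 0.085. Pdk4, a brake on pyruvate oxidation, was higher by 0.48 and Acot1 by 0.41, and Angptl4 was at -0.30. The receptor Ppara itself was at -0.06.

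Stress and hormone-responsive genes lay to both sides. In the heat shock list 9 were higher and 9 lower with a median of 0.00. Apart from Hspa1b and Hspa1a, at -0.69, no member passed 1.5-fold. The cochaperones Bag3, Hsph1 and Dnajb1 were at -0.30, -0.27 and -0.25. Of 12 immediate early genes 5 were higher and 7 lower, with a median of -0.155. Fos was at 7.84, 7.27, 7.07 and 7.89 and the phosphatase Dusp1 at 9.41, 9.12, 8.78 and 8.92, whereas Egr1 differed by 0.01 and Jun by 0.31.

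Of 12 metallothionein and glucocorticoid-responsive genes 7 were higher and 5 lower, with a median of 0.035 and a mean of -0.07, which differ in sign. The zinc finger factor Zbtb16 was at 7.62, 7.47, 6.81 and 7.50, and Tsc22d3, the glucocorticoid-induced leucine zipper, at 8.54, 7.70, 7.83 and 7.83. As means over all their probe sets these differed by -0.57 and -0.39, short of 1.5-fold. The tyrosine aminotransferase gene Tat was at -0.40 and Ddit4 at -0.26, Fkbp5 was higher by 0.18, and the receptor Nr3c1 by 0.11. Mt2 was higher by 0.59 and Mt1 by 0.21. Acute phase genes were balanced, 12 higher and 14 lower of 27, with a median of -0.02. The iron-binding protein Lcn2 was at 4.88, 5.34, 5.53 and 9.78, and the receptor Il1r1 at 6.75, 6.48, 6.14 and 6.79, with a mean over its probe sets that differed by -0.22. The serum amyloid genes Saa1 and Saa2 were at -0.26 and -0.34 at 13 months.

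**Figure D5:**
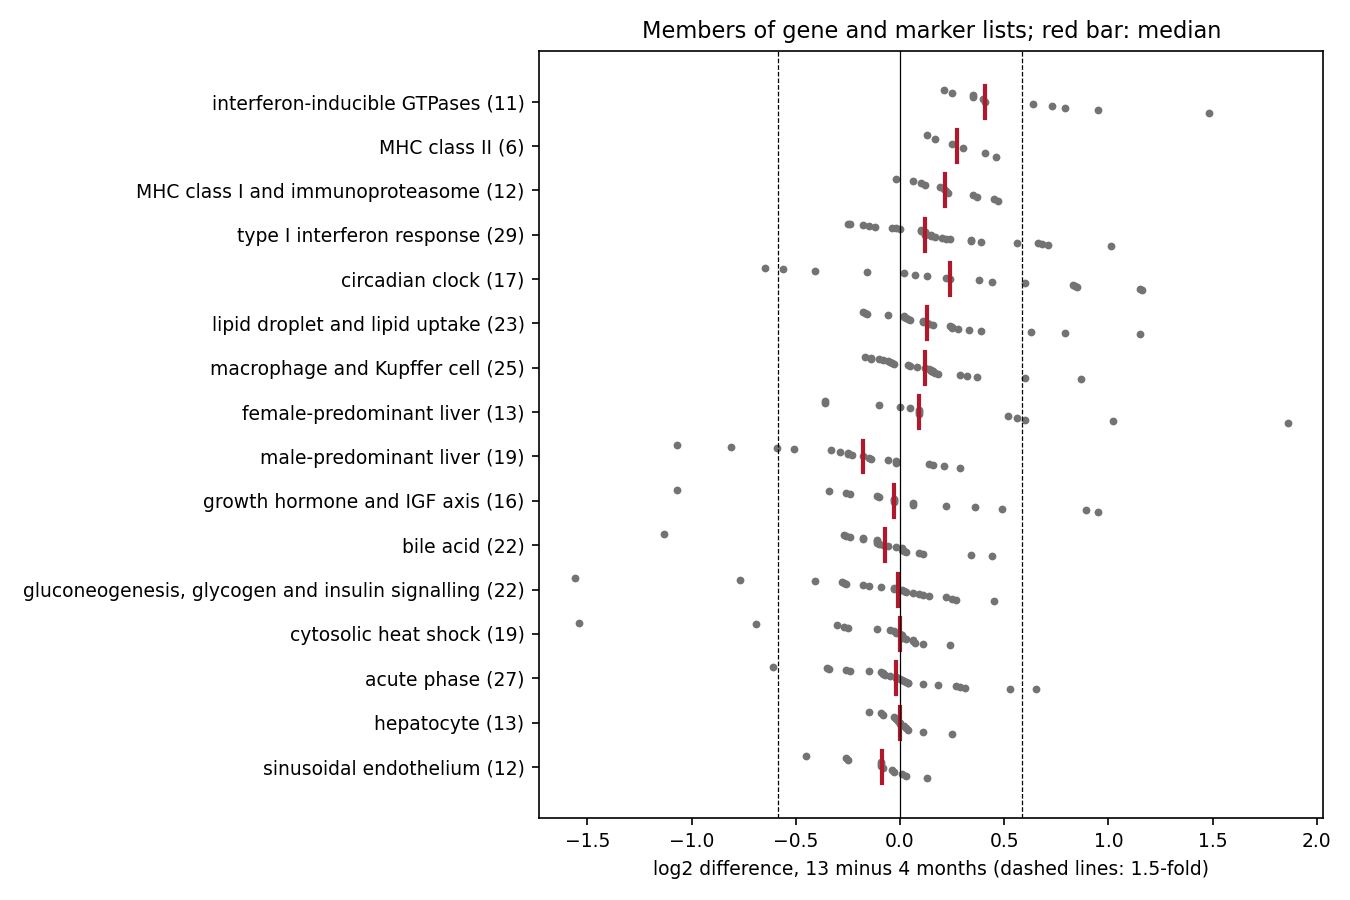
Each row is a gene or marker list with its number of kept members in parentheses; points are the members' log2 differences, 13 minus 4 months, the red bar is their median and dashed lines mark 1.5-fold. All GTPase points lie right of 0 (median 0.41), male-predominant genes lie mostly left of it (median -0.18), and the heat shock and glycogen lists have medians of 0.00 and -0.01 with 2 members far to the left in each.

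In the lists that follow Cyp2b9 alone passed 1.5-fold. The 36 respiratory chain genes ranged from -0.06 to 0.09, and the 19 ribosomal protein genes had a median of 0.05. Of 24 autophagy and lysosome genes 21 were higher, with a median of 0.07 and at most 0.25, that of Ctss. In the endoplasmic reticulum list none of 25 passed 1.5-fold on the probe set used, and Dnajb9 and Ddit3 were at -0.54 and -0.45. The other Ddit3 probe set above the filter was lower by 1.5-fold or more. Of 30 urea cycle and amino acid genes 14 were higher and 15 lower, between -0.40 for Tat and 0.35 for Oat. The xenobiotic list had Cyp2b9 alone past 1.5-fold, with the next largest difference 0.37, that of Cyp2c37. Collagen and matrix genes had 12 higher and 8 lower of 21, from Col3a1 at -0.52 to Timp3 at 0.39.

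The other genes nearest the lower end were in none of the lists. Vasn, which encodes a TGF-beta-binding membrane protein, was at -0.96 on a probe set that can match several transcripts and at -0.34 on its other one. P4ha1, a collagen prolyl hydroxylase subunit, was at 6.06, 5.38, 5.22 and 5.40. Iglon5, a cell adhesion molecule, was at -0.92 with a 13-month level of 3.62, below the filter, and Banp, a nuclear matrix-binding protein, was at -0.80.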

How the data were processed

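The authors deposited 1 log2 value per probe set and array for 45101 probe sets, made with RMA per the submitters' processing notes. Its version, the arrays normalized together and any detection calls are not stated in the sources used. Because RMA aligns the distributions, a change common to most genes would not show, and small values are compressed.

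Gene names came from the platform annotation, dated 2016. Of the probe sets 64 were controls, 34945 had a single symbol, 932 several and 9160 none, and 34741 of the named were matched by gene ID to a RefSeq table. Each gene was taken from its probe set with the highest mean. Some list members short of 1.5-fold on it passed that size in the same direction on another probe set above the filter. Among them were Insig2, Ddit3, Cyp7a1, Slco1a1, Tef, Gbp2 and Gbp6. The 48 gene and marker lists, and the members, were chosen with earlier results of these data known. Named genes are all those past 2-fold, filled to 15 in each direction, all list members past 1.5-fold, otherwise the 2 largest of a list, and regulators of each pathway. Further list members illustrate the spread within lists and were chosen after their values were seen.

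Sizes were computed with no test, and the number of arrays limits their precision. The counting steps were tested on simulated data. Alternatives were other probe set rules, filters, scalings and thresholds. Alternative normalizations used limma 3.58.1 in R 4.3.3. All else was done in Python 3.11.15 with pandas 2.3.3 and numpy 2.4.6, and figures with matplotlib 3.10.9.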

Additional observations from a re-analysis of the deposited data

How the results depend on the processing

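The 21 higher and 6 lower genes at 2-fold became 97 and 53 at 1.5-fold and 4 and 0 at 3-fold. With the filter at the 75th percentile 12 were higher, and with the mean over the 2 compared arrays 19. Centring, quantile normalization and cyclic loess each kept all 27. Since RMA had already aligned the distributions of the deposited values, these scalings could change little and are a weak check. The mean over all probe sets gave 14 higher and 5 lower, and 18 of the 27 were among them. The GTPase median of 0.41 was 0.53 with the mean over all probe sets, 0.64 without probe sets that can match several transcripts or when only the 2 arrays chose the probe set, 0.525 at the 75th percentile and 0.60 as a mean. At the 75th percentile 3 GTPases and 3 clock genes were at least 1.5-fold higher. With the mean over all probe sets the clock counts at 1.5-fold were 4 higher and 0 lower. That setting also took 18 of 64 named genes below their threshold, among them Ighm (0.30), Dclre1a (0.36), Slc8a1 (0.25), Camk2d (0.12), Per3 (0.30), Per2 (0.29), Arntl (-0.34) and Socs2 (0.48). Mt2 fell short of 1.5-fold under quantile normalization (0.575) and cyclic loess. No direction of a called value reversed. Leaving out a replicate was not possible with 1 array per age. No paired analysis was possible because each age has 1 array. Of the 21 higher genes 4 were below the filter at 4 months.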

Other observations

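Probe sets left without a gene name also differed. Of 2476 above the filter with no symbol, 4 were at least 2-fold higher at 13 months, up to 1.21, and 2 at least 2-fold lower, down to -1.15. Of 562 with several symbols, 5 were at least 2-fold higher, up to 1.58, and none was at least 2-fold lower, the lowest being -0.64.

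Markers of liver zones and of cells around the sinusoid were measured too. Of 10 pericentral genes 6 were higher, with Rhbg, an ammonia transporter, higher by 0.38 and Glul, glutamine synthetase, by 0.16. Of 10 periportal genes 7 were lower, with Hsd17b6 at -0.45 and Ass1 at -0.31 beside Cdh1. Of 12 sinusoidal endothelial genes 9 were lower, with a median of -0.085, and Lyve1, a hyaluronan receptor, was at 6.81, 5.89, 6.36 and 6.66 in order of age. Stellate cell genes had a median of 0.00, with Lrat, which stores retinol as esters, higher by 0.30. Of 12 kept cell cycle genes 9 were higher, led by Rrm2 with 0.49, while Cdk1 was at -0.19 and Ccnd1 at -0.33. The other listed members were below the filter in both pools and are not in that count. Among these, Mki67 was at -0.19, Top2a at -0.09 and Tyms at -0.31, Ccna2 and Ccnb2 were equal, and Birc5 and Mcm5 were higher by 0.20 and 0.24.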
